A study of Homo sapiens with 12 samples.

Results

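The genes described here are 43 genes of the lysosome: 11 cathepsins and other proteases, 8 glycosidases, 4 sulfatases, 9 genes for lipid hydrolases, their activators and cholesterol carriers (with GRN), 9 membrane proteins, and TFEB and TFE3, the transcription factors of lysosomal genes. They were taken by symbol from a list of names whose rule uses no measured value, but the list was drawn up with earlier results of these data known, so the shares of it that changed are a description. All 43 were found in the files, and all 43 were among the 13422 protein-coding genes tested. RNA sequencing measured them in 2 human acute myeloid leukemia (AML) cell lines after 36 h with or without duocarmycin stable A (DSA), a small molecule that binds the DNA minor groove and alkylates adenines. Molm-14 cells were left without DSA or given 11.1 pM (low) or 100 pM (high), and HL-60 cells were left without DSA or given 112.7 pM (low) or 500 pM (high), with 2 libraries in each of the 6 groups and 12 libraries in all. The labels call the controls untreated, whereas the methods of the study name a vehicle. The lines were kept in different media (RPMI with less serum for Molm-14, IMDM with more serum for HL-60), so medium and line cannot be told apart, and each line is a single culture model of AML. Nothing in the sources used here says that the 2 libraries of a group came from separate cultures, so p-values measure the spread between libraries, which may be technical.

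Lysosomes are acidic organelles in which hydrolases break down proteins, glycans, sulfated sugars and lipids delivered by endocytosis and autophagy. Most of these enzymes reach the lysosome with a mannose 6-phosphate tag, and a dense coat of membrane proteins such as LAMP1 and LAMP2 lines its inner face. TFEB and TFE3 move to the nucleus when mTORC1 at the lysosome is inactive, and there they bind an E-box motif, the CLEAR element, in promoters of lysosomal genes. In myeloid cells lysosomal genes are known to rise as precursors mature toward macrophages.

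Promoters are shown for 5 of the genes because the E-box is the element through which TFEB and TFE3 act. They are the 250 bases before the RefSeq start (GRCh38.p14), 5′ to 3′ on the strand of the gene, with each CACGTG in capitals. LAMP1, GAA, MCOLN1 and CTSD carry the motif, and SMPD1, whose level changed more in HL-60 cells than that of the other 4, does not carry these letters in this window. In the order given they lie at chr13:113296989-113297238 (+), chr17:80101331-80101580 (+), chr19:7522374-7522623 (+), chr11:1763928-1764177 (-) and chr11:6390224-6390473 (+).
LAMP1: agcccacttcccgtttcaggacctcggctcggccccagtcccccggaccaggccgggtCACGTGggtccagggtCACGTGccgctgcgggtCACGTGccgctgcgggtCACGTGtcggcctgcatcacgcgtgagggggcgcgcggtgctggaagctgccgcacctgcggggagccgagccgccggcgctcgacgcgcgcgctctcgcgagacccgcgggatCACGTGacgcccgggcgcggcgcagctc
GAA: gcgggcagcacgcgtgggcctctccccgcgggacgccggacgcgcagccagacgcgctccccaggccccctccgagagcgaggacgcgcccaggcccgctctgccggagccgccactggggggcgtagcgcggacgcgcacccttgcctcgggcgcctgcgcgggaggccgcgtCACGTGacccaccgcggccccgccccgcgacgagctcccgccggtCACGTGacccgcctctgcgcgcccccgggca
MCOLN1: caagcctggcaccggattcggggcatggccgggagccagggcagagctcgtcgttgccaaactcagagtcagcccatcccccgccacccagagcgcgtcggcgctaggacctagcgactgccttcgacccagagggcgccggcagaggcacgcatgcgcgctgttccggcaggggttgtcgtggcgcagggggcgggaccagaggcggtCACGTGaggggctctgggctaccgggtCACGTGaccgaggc
CTSD: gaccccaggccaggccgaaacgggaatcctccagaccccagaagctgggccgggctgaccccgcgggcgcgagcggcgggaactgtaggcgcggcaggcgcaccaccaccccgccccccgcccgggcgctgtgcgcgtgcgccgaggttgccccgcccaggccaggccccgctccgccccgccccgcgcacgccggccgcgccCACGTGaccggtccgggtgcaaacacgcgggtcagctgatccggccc
SMPD1: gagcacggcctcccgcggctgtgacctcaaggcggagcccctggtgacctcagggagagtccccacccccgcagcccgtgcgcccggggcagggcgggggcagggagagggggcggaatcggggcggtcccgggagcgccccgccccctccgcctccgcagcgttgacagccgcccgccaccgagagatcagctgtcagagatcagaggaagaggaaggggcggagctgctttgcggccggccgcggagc

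Windows from 250 bases before to 50 bases after a start were at hand for 32 of the 43 genes, 45 windows in all. CACGTG, which reads the same on both strands, stood in 9 of the 45 windows (20.0%), in ARSB, CD63, CTSA, CTSD, CTSF, GAA, LAMP1, MCOLN1 and NEU1, against 8.34% of the 22198 windows of all protein-coding genes. In the 178 windows of the other lysosomal lists described below it stood in 35 (19.7%), so it is not particular to these 43 genes. The longer TCACGTG, which contains it, was searched on both strands and stood in 17.8% of the windows of the lysosomal genes against 4.44% of all windows. The full CLEAR palindrome, CACGTG with GT before it and AC after it, which contains both, was found in GAA and MCOLN1. That is 4.44% of the windows, against 3.37% in the other lysosomal lists and 0.496% of all windows. The related M-box TCATGTG, searched on both strands, was found in CD63, CTSA, GRN, PPT1, SCARB2 and TPP1. That is 13.3% of the windows, against 6.18% in the other lysosomal lists and 2.32% of all windows. TATAAA, likewise searched on both strands, was in 0 of the 45 windows, against 5.62% in the other lysosomal lists and 9.47% of all windows. ARSA, ASAH1, CTSB, CTSK, CTSS, HEXA, LAMP2, LAPTM4B, NAGLU, PSAP and SGSH had no window.

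Total expected counts ran from 21177424 to 63927449 per library. HL-60 libraries carried the granule genes of promyelocytes (MPO, ELANE, PRTN3, AZU1 and CTSG) at a summed 18371 and 18627 CPM (counts scaled to the library size) without DSA, against 3542 and 3651 CPM in Molm-14 cells, and all 5 were detected in every group. CPM values here are scaled by TMM factors and set genes against themselves across libraries, not against each other. Mitochondrial transcripts took 1.47% and 1.68% of counts in untreated Molm-14 cells, 2.35 to 2.45% at 11.1 pM, and 4.09% and 2.72% at 100 pM. In HL-60 cells they took 2.22% and 2.47%, then 3.68% and 3.76%, then 5.46% and 4.64%. This share moved with DSA in both lines, and its part in the results below was not tested.

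The lysosomal transcripts as a whole took a larger share of each library at the high dose. Summed over the 43 genes in TPM, RSEM's transcript abundance, which corrects for gene length, they amounted to 2270 and 2244 TPM in untreated Molm-14 cells, 2278 and 2246 TPM at 11.1 pM, and 2841 and 2924 TPM at 100 pM. In HL-60 cells the sums were 3010 and 2965 TPM without DSA, 3554 and 3474 TPM at the low dose, and 4325 and 4366 TPM at the high dose. Both high-dose libraries lay above both untreated libraries in each line, and in HL-60 cells the low-dose libraries lay between them. Lipid-handling genes went from a mean of 718 TPM to 1196 TPM in HL-60 cells between no DSA and 500 pM, proteases from 977 to 1405 TPM, and membrane proteins from 804 to 1110 TPM. In bulk RNA, a change in the make-up of the culture and a change in RNA per cell cannot be told apart.

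**Figure D1:**
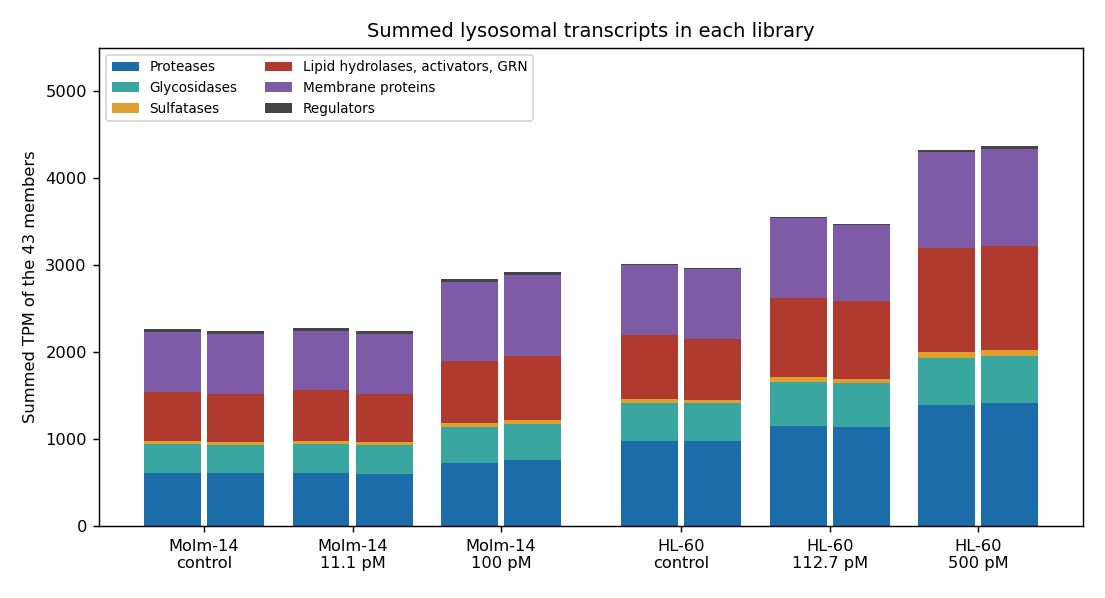
Summed TPM of the 43 lysosomal genes in each of the 12 libraries, with the 6 role groups stacked in each bar. The sums stayed near 2250 TPM in Molm-14 cells up to 11.1 pM and reached 2841 and 2924 TPM at 100 pM, and in HL-60 cells they stood higher at each dose, up to 4325 and 4366 TPM at 500 pM.

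Untreated, LAPTM5 and PSAP were among the 3 highest lysosomal genes in both lines. In TPM, LAPTM5 (a lysosomal membrane protein of blood cells) stood first in Molm-14 controls at 178 ± 1.34 TPM (mean ± SD, n = 2), followed by PSAP, the precursor of the saposins, at 169 ± 1.13 TPM, and GRN, progranulin, at 151 ± 3.28 TPM. In HL-60 controls CTSC, the cathepsin that activates granule serine proteases, stood first at 323 ± 5.95 TPM, followed by LAPTM5 at 314 ± 3.10 TPM and PSAP at 258 ± 7.22 TPM. The ranges of PSAP, the aspartic protease CTSD and the thioesterase PPT1 overlapped in HL-60 controls, so their order is not resolved. Of the 43 genes, 22 were higher and 18 lower in untreated HL-60 than in untreated Molm-14 cells at an adjusted p under 0.05. More than 2-fold differences were found for 10 and 6 of them, where 16.5% and 20.6% of all genes had one. Over all genes tested, HL-60 cells had the higher level for 43.9% and the lower level for 40.1%, beside 51.2% and 41.9% of the lysosomal genes, so differences between the lines are no mark of these genes. CTSD (log2 difference 2.02 ± 0.04 SE, adjusted p = 7.04e-20), CTSL (1.96 ± 0.10) and GM2A, the GM2 activator (1.67 ± 0.06), were higher in HL-60 cells. TFEB (-4.56 ± 0.09, adjusted p = 3.82e-19), the acid alpha-glucosidase GAA (-3.40 ± 0.07), CTSZ (-2.52 ± 0.06), CTSB (-2.23 ± 0.04) and CD68 (-1.99 ± 0.05) were lower. CTSF, a cysteine cathepsin, had 7 and 21 counts in the untreated Molm-14 libraries and 0 and 0 in the untreated HL-60 libraries, and a single count in the other 4 HL-60 libraries together. No fold change is given for it in HL-60 cells. The calls of MCOLN1, SGSH, MAN2B1 and ASAH1 were lost when single control libraries were left out, with adjusted p up to 0.345 for MAN2B1 without Molm-14 control 1.

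At 11.1 pM, none of the 43 genes passed the test in Molm-14 cells. Leaving out CTSF and SGSH for their few counts, the median log2 fold change of the other 41 was -0.0065, with values from -0.19 (CTSH) to 0.33 (CTSK), beside a median of -0.005 over all genes tested, of which 0.969% were higher and 0.238% lower, with 0.00745% higher and 0.0149% lower by more than 2-fold. At an unadjusted p under 0.05 edgeR found 4 genes, all higher: ARSA, LAPTM5, NPC2 and TPP1, where 6.77% of all genes were higher and 5.1% lower at that p. DESeq2 found 2 higher and 1 lower (3.98% and 3.58% of all genes), and limma-voom 4 higher and 1 lower (6.87% and 5.8%), and with either of them TPP1, a tripeptidyl peptidase, passed after adjustment.

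At 100 pM in Molm-14 cells, 35 of the 43 genes were higher, 1 was lower and 7 did not pass the test. Of all genes tested, 22.9% were higher and 21.9% lower. The counts by role in Molm-14 cells at 100 pM given below stand beside these same shares. The median log2 fold change of the lysosomal genes was 0.37, with the quartiles at 0.20 and 0.58, beside 0.0038 over all genes. The changes were small. CTSK, CD68 and LAPTM5 changed most among genes with more than a few counts (log2 fold changes 0.98 ± 0.19, 0.95 ± 0.04 and 0.95 ± 0.03), and none of them passed 2-fold. SGSH, at 3 to 11 counts per library, was the 1 gene counted past 2-fold, where 3.29% of all genes were. For 37 of the 43 genes both high-dose libraries lay above both untreated libraries, beside 37.7% of all genes. Set against the low dose instead of no DSA, 33 were higher and 1 lower at 100 pM, with 19.6% of all genes higher and 18.5% lower, and no member with a call rose more than 2-fold, where 2.26% of all genes did.

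By role, 8 of 11 proteases rose in Molm-14 cells at 100 pM. Besides CTSK, a collagen-degrading cathepsin, the larger changes were those of CTSL (0.75 ± 0.12, adjusted p = 3.73e-05) and TPP1 (0.69 ± 0.03, adjusted p = 2.29e-12), and CTSC, CTSF and CTSH did not pass. Of the glycosidases 6 of 8 rose, led by GAA, which breaks down glycogen (0.56 ± 0.05), and MAN2B1, an alpha-mannosidase (0.45 ± 0.04). GUSB and NAGLU did not pass. All 4 sulfatases passed, including ARSA, which acts on sulfatide (0.71 ± 0.07), and IDS, which acts on heparan and dermatan sulfate (0.61 ± 0.08). Of the lipid-handling genes 7 of 9 rose, led by GRN (0.72 ± 0.04) and GM2A (0.62 ± 0.06), and the cholesterol transporter NPC1 (-0.04 ± 0.06) and PPT1 (-0.08 ± 0.04) did not pass. Of the membrane proteins 8 of 9 rose, and LAPTM4B fell by 0.17 on the log2 scale (adjusted p = 0.000371).

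Several of the smaller Molm-14 calls depended on 1 library. TFEB (0.17 ± 0.06, adjusted p = 0.0275) lost its call when any of the 4 libraries was left out (adjusted p from 0.0823 to 0.129), with DESeq2 (0.171), with all gene types tested (0.0682) and with libraries thinned to the smallest total (0.414). GLB1, the beta-galactosidase, lost it without control 2 (0.05, adjusted p = 0.527), high-dose library 1 (0.16, 0.0859) or high-dose library 2 (0.14, 0.141). MCOLN1, a calcium channel of the lysosomal membrane, lost it without control 1 (0.217) or high-dose library 1 (0.175), and LAMP2 without control 2 (0.0574). SGSH, the sulfamidase, had 3 and 3 counts in the untreated libraries, 5 and 5 at 11.1 pM, and 11 and 11 at 100 pM. In TPM, SGSH stood at 0.09 and 0.08, then 0.20 and 0.30, then 0.08 and 0.34 TPM, so that 1 high-dose library showed no rise. Its call (adjusted p = 0.0209) was lost without any of the 4 libraries (adjusted p from 0.0609 to 0.0973), and no fold change is given for it in Molm-14 cells.

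**Figure D2:**
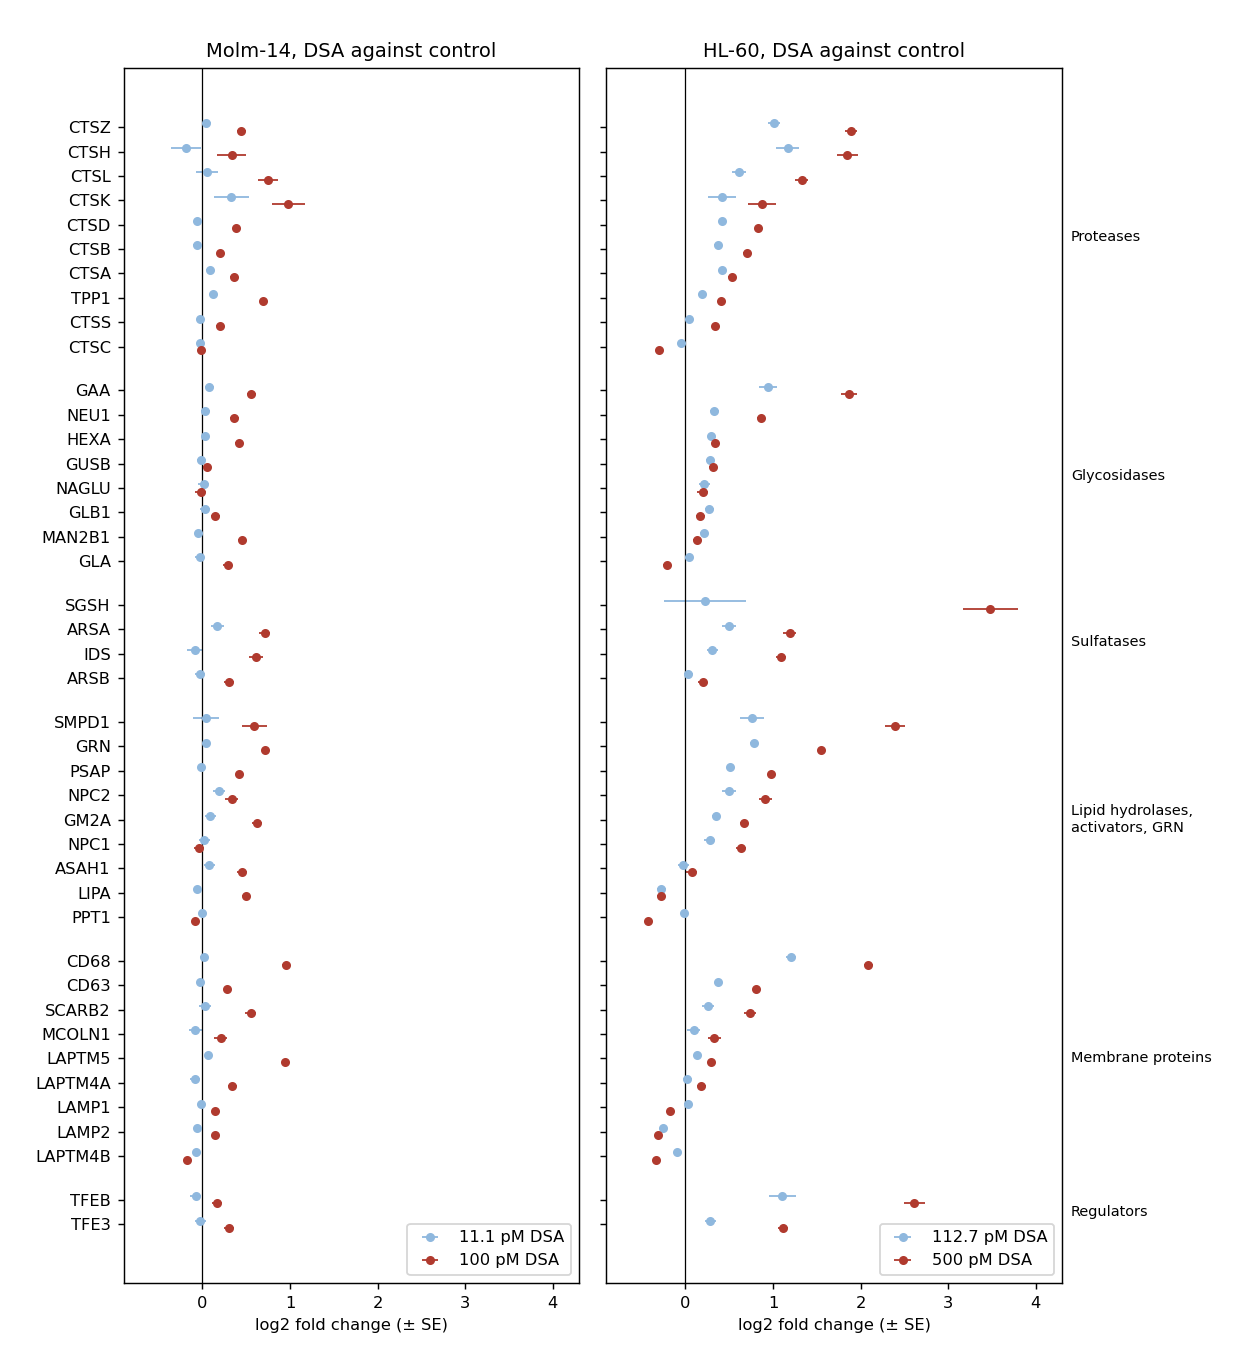
Log2 fold changes against untreated cells (points, ± SE) of 42 of the 43 genes at the low and the high dose in each line, ordered by role; CTSF is left out, and SGSH is left out for Molm-14 cells, because of their low counts. In Molm-14 cells the low-dose points lie near 0 and the high-dose points mostly to the right of it, whereas in HL-60 cells TFEB, SMPD1, CD68, CTSZ, GAA and CTSH reach log2 values from 1.85 to 2.61.

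In HL-60 cells the low dose already changed most of the lysosomal genes. At 112.7 pM, 29 of the 43 were higher and 3 lower, with 24.2% of all genes higher and 27.4% lower, and the median log2 fold change was 0.29. CD68, CTSH, TFEB and CTSZ rose more than 2-fold, a size of rise that 5.57% of all genes reached. With the counts of a non-coding gene that overlaps CD68 on the same strand added, CD68 rose less than 2-fold (log2 0.52, edgeR adjusted p = 4.59e-07). LIPA, the acid lipase, fell by 0.27 on the log2 scale, LAMP2 by 0.25 and LAPTM4B by 0.10. The LAPTM4B call was lost without control 1 (adjusted p = 0.122) or low-dose library 2 (0.181) and with total counts, RLE factors or DESeq2, and those of CTSK, NAGLU and SCARB2 were each lost without low-dose library 1 (adjusted p = 0.181, 0.0806 and 0.106). CTSK was also lost without control 1 (0.185) or low-dose library 2 (0.0635), and NAGLU without control 2 (0.0632).

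At 500 pM in HL-60 cells, 34 of the 43 genes were higher, 7 lower and 2 (ASAH1 and CTSF) did not pass. Of all genes tested, 35.8% were higher and 37.8% lower. The counts by role in HL-60 cells at 500 pM given below stand beside these same shares. The median log2 fold change of the lysosomal genes was 0.63, with the quartiles at 0.18 and 1.10. Of the 43, 12 rose more than 2-fold, where 16.5% of all genes did, and none fell more than 2-fold, where 2.05% did. Against the low dose, 29 were higher and 5 lower at 500 pM (25.9% and 26.8% of all genes, with 8.15% of all genes higher by more than 2-fold). The mean CPM rose at each dose step for 31 of the 43 genes (72.1%) in HL-60 cells, beside 34.7% of all genes, and for 20 (46.5%) in Molm-14 cells, beside 26.3%.

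TFEB and TFE3 encode the factors that bind the E-boxes shown above. TFEB stood at 1.31 and 1.68 CPM in the untreated HL-60 libraries, 3.71 and 3.02 CPM at 112.7 pM and 9.88 and 9.06 CPM at 500 pM. The 3 groups did not overlap, and the rise at 500 pM was 6.12-fold (log2 2.61 ± 0.12, adjusted p = 4.76e-13). In Molm-14 cells TFEB stood at 36.1 and 36.5 CPM without DSA, 34.1 and 34.8 CPM at 11.1 pM and 41.0 and 40.6 CPM at 100 pM, so that every Molm-14 library lay above the HL-60 libraries at 500 pM. TFE3 stood at 21.3 and 19.9 CPM in untreated HL-60 cells, 24.2 and 25.7 CPM at the low dose and 44.1 and 44.9 CPM at the high dose (log2 1.12 ± 0.06, adjusted p = 2.20e-12). In Molm-14 cells it stood at 26.5 and 25.02 CPM, then 24.8 and 25.9 CPM, then 32.0 and 31.4 CPM (log2 0.30 ± 0.06, adjusted p = 0.000320). The control and low-dose libraries of Molm-14 overlapped, and the high-dose libraries lay above both.

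Among the proteases, 9 of 11 rose in HL-60 cells at 500 pM and CTSC fell. CTSZ, a carboxypeptidase, stood at 12.6 and 14.8 CPM without DSA, 28.5 and 27.6 CPM at the low dose and 50.7 and 52.0 CPM at the high dose (log2 1.89 ± 0.06, adjusted p = 6.84e-15). In Molm-14 cells its values were 79.9 and 79.5 CPM, then 84.5 and 80.1 CPM, then 106 and 111 CPM. CTSH, an aminopeptidase, stood at 4.05 and 3.65 CPM in untreated HL-60 cells, 9.06 and 8.20 CPM at the low dose and 14.1 and 13.5 CPM at the high dose (log2 1.85 ± 0.12, adjusted p = 8.30e-11). The 3 HL-60 groups did not overlap for either gene. In Molm-14 cells CTSH had 2.21 and 2.30 CPM without DSA and 2.57 and 3.13 CPM at 100 pM, and did not pass the test (adjusted p = 0.106). CTSL, an endopeptidase, stood at 15.6 and 16.2 CPM in untreated HL-60 cells, 23.3 and 25.1 CPM at the low dose and 41.9 and 38.1 CPM at the high dose (log2 1.33 ± 0.07, adjusted p = 6.62e-12). In Molm-14 cells CTSL ran from 3.71 to 4.56 CPM without DSA and at the low dose and reached 6.84 and 6.90 CPM at the high dose. It has pseudogene copies elsewhere in the genome, which can take part of its reads. CTSD (0.83 ± 0.03) and CTSB (0.70 ± 0.05) rose less than 2-fold. CTSC fell by 0.30 on the log2 scale (adjusted p = 4.07e-08). CTSZ overlaps NELFCD on the opposite strand, and the sources used here do not say whether the counting used strand.

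Of the glycosidases, 7 of 8 rose in HL-60 cells at 500 pM and GLA, the alpha-galactosidase, fell by 0.21. GAA stood at 3.86 and 4.05 CPM without DSA, 7.57 and 7.69 CPM at the low dose and 13.9 and 15.0 CPM at the high dose (log2 1.87 ± 0.09, adjusted p = 6.36e-13). In Molm-14 cells GAA stood at 41.6 and 42.4 CPM, then 46.4 and 42.5 CPM, then 63.0 and 61.0 CPM, all above the HL-60 libraries. The sialidase NEU1 rose by 0.87 ± 0.05 in HL-60 cells, and the other 5 that rose changed by 0.13 (MAN2B1) to 0.34 (HEXA, the alpha subunit of beta-hexosaminidase). The MAN2B1 call was lost without control 1 (adjusted p = 0.0710), and that of NAGLU without control 2 (0.0723) or high-dose library 1 (0.0502). GLA overlaps the ribosomal protein gene RPL36A on the opposite strand, which had a mean of 21484 counts per library, against 1795 for GLA.

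All 4 sulfatases were higher in HL-60 cells at 500 pM. SGSH had 9 and 17 counts in the untreated libraries, 4 and 12 at 112.7 pM, and 75 and 86 at 500 pM, an 11.2-fold rise after scaling (log2 3.48 ± 0.32, adjusted p = 9.62e-09). In TPM the rise was smaller, from 0.26 and 0.40 TPM without DSA to 1.82 and 1.40 TPM at 500 pM. The control and low-dose libraries of SGSH overlapped. ARSA stood at 11.1 and 11.9 CPM without DSA, 16.9 and 15.8 CPM at the low dose and 27.8 and 25.1 CPM at the high dose (log2 1.19 ± 0.07, adjusted p = 3.81e-11). In Molm-14 cells ARSA had 19.4 and 21.5 CPM, then 22.3 and 23.7 CPM, then 33.4 and 33.4 CPM. The groups did not overlap, but ARSA did not pass the test at 11.1 pM. Both low-dose libraries lay above both untreated ones for 20.2% of all genes tested. IDS stood at 28.4 and 28.3 CPM in untreated HL-60 cells, 34.7 and 35.5 CPM at the low dose and 56.3 and 63.96 CPM at the high dose (log2 1.09 ± 0.06, adjusted p = 1.03e-11). In Molm-14 cells IDS had 12.01 and 13.1 CPM, then 11.5 and 12.2 CPM, then 20.0 and 18.4 CPM. IDS has a nearby pseudogene copy that can share its reads. ARSB, the arylsulfatase of dermatan sulfate, changed by 0.20 ± 0.05, and its call was lost without high-dose library 2 (adjusted p = 0.0658).

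Of the 9 lipid-handling genes, 6 rose in HL-60 cells at 500 pM, LIPA and PPT1 fell, and the acid ceramidase ASAH1 did not pass. SMPD1, the acid sphingomyelinase that makes ceramide, stood at 2.95 and 2.85 CPM without DSA, 4.87 and 4.94 CPM at the low dose and 15.9 and 14.7 CPM at the high dose, a 5.25-fold rise (log2 2.39 ± 0.12, adjusted p = 1.56e-12). In Molm-14 cells SMPD1 was at 2.69 and 2.69 CPM without DSA, stood at 2.53 and 2.98 CPM at the low dose and reached 3.88 and 4.25 CPM at the high dose (log2 0.59 ± 0.14, adjusted p = 0.00219), a call that was lost with libraries thinned to the smallest total (0.34, adjusted p = 0.229). The untreated lines did not differ in SMPD1 beyond their spread (log2 0.11 ± 0.14). GRN stood at 113 and 109 CPM in untreated HL-60 cells, 189 and 193 CPM at the low dose and 329.8 and 321 CPM at the high dose (log2 1.55 ± 0.04, adjusted p = 1.33e-16). In Molm-14 cells GRN stood at 196 and 184 CPM, then 199.7 and 192 CPM, then 319 and 306 CPM. The high-dose libraries of the 2 lines thus lay close together, from 306 to 329.8 CPM. PSAP rose in HL-60 cells by 0.97 ± 0.03, the sterol carrier NPC2 by 0.91 ± 0.07 and NPC1 by 0.63 ± 0.06. PPT1 fell by 0.42 (adjusted p = 2.97e-09) and LIPA by 0.28.

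Of the 9 membrane proteins, 6 rose (66.7%) and 3 fell (33.3%) in HL-60 cells at 500 pM, beside 35.8% and 37.8% of all genes. CD68, a heavily glycosylated macrophage marker, stood at 14.0 and 13.9 CPM without DSA, 31.8 and 32.5 CPM at the low dose and 58.9 and 59.7 CPM at the high dose (log2 2.09 ± 0.05, adjusted p = 1.14e-16). In Molm-14 cells CD68 stood at 56.6 and 53.9 CPM, then 57.1 and 54.6 CPM, then 109 and 105 CPM. A non-coding gene on the same strand overlaps CD68 and had a mean of 1334 counts per library, against 1758 for CD68. With the counts of both summed, the log2 fold change of CD68 was 1.17 in HL-60 cells (adjusted p = 4.96e-13) and 0.73 in Molm-14 cells (4.09e-10). The tetraspanin CD63 (0.81 ± 0.04) and SCARB2, the sorting receptor of glucocerebrosidase (0.74 ± 0.07), also rose. MCOLN1 rose by 0.33 ± 0.07, but summed with PNPLA6, an overlapping gene on the same strand, it changed by 0.07 (adjusted p = 0.238).

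LAMP1, one of the main proteins of the lysosomal membrane, was at 119.6 and 120.4 CPM in untreated HL-60 cells, 125 and 119.9 CPM at the low dose and 105 and 108 CPM at the high dose. The high-dose libraries lay below the others, and LAMP1 fell by 0.17 on the log2 scale (± 0.04, adjusted p = 0.000245), whereas with scaling by total counts its log2 fold change was 0.0089 beside a median of 0.18 over all genes. In Molm-14 cells LAMP1 stood at 203 and 199 CPM, then 198 and 199 CPM, then 225 and 221 CPM (log2 0.15 ± 0.03, adjusted p = 0.00133). LAMP2 fell by 0.31 and LAPTM4B by 0.33 in HL-60 cells. With total counts alone, 4 of the 7 falls in HL-60 cells passed the test, and GLA (-0.03, adjusted p = 0.593), LIPA (-0.10, 0.0805) and LAMP1 did not.

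**Figure D3:**
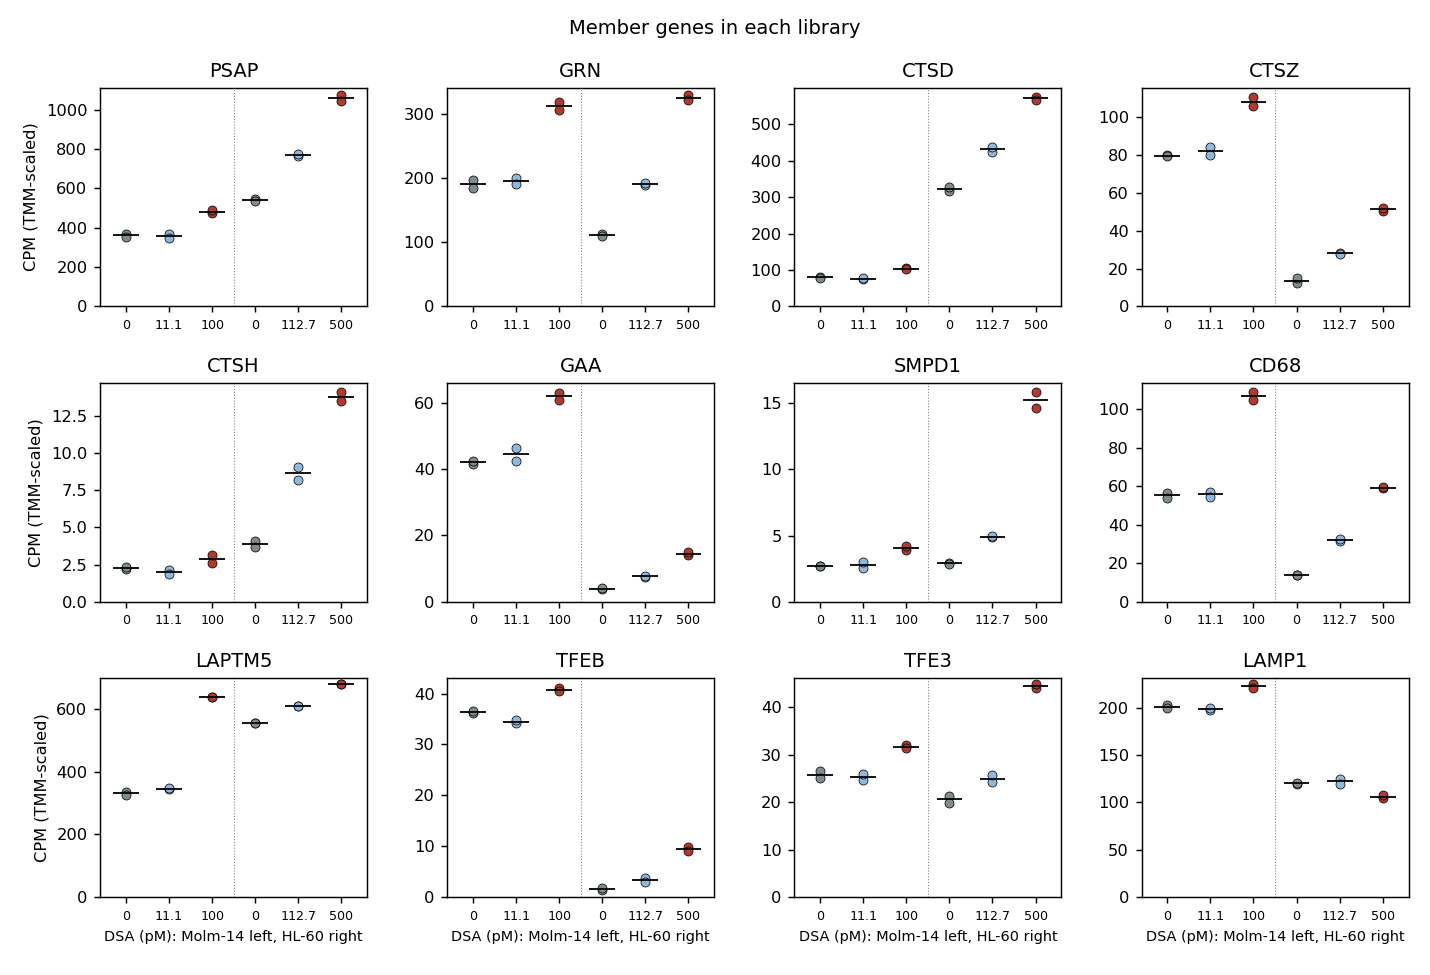
CPM of 12 lysosomal genes in each library (points) with the mean of each group (lines), by DSA dose in pM, with Molm-14 to the left and HL-60 to the right of the dotted line. TFEB, GAA, CTSZ and CD68 start lower in HL-60 than in Molm-14 cells and rise at each dose there, SMPD1 starts between 2.69 and 2.95 CPM in both, and LAMP1 ends lower than it started in HL-60 cells.

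At the high doses 30 of the 43 genes (69.8%) were higher in both lines, a pattern that 14.3% of all genes tested had. GLA, LIPA, LAMP1 and LAMP2 were higher in Molm-14 and lower in HL-60 cells (9.3% of the 43, against 3.81% of all genes). LAPTM4B was lower in both (14.9% of all genes), and CTSF passed in neither (18.1% of all genes). CTSH, GUSB, NAGLU and NPC1 passed as higher in HL-60 cells alone (2416 of the 13422 genes tested), ASAH1 passed as higher in Molm-14 cells alone (4.84%), and CTSC and PPT1 passed as lower in HL-60 cells alone (19.1%).

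The difference between the lines was tested as the change in HL-60 cells minus that in Molm-14 cells. At the high doses (500 pM against 100 pM) 21 of the 43 genes changed more upward in HL-60 and 11 more upward in Molm-14 cells, beside 25.1% and 30.3% of all genes. The doses differ, so these values set the responses side by side at each line's own high dose. A difference over 2-fold in favour of HL-60 cells was found for 6 genes, where 10.1% of all genes had one: TFEB (log2 2.45 ± 0.13, adjusted p = 3.09e-11), SMPD1 (1.80 ± 0.19), CTSH (1.51 ± 0.20), CTSZ (1.45 ± 0.08), GAA (1.31 ± 0.10) and CD68 (1.14 ± 0.07). For CD68 with its overlapping gene summed the difference was 0.44. In favour of Molm-14 cells, the larger differences were those of LIPA (-0.77 ± 0.06), LAPTM5 (-0.66 ± 0.04), GLA (-0.50 ± 0.07) and LAMP2 (-0.46 ± 0.05). Those of GLA, LIPA, LAMP1 and LAMP2 set a rise in Molm-14 against a fall in HL-60 cells, and for LAMP1, GLA and LIPA that fall did not pass with total counts alone. The CTSA and CTSS calls were each lost when 5 of the 8 libraries were left out singly, with adjusted p up to 0.247 for CTSA and 0.183 for CTSS, both without Molm-14 control 1.

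The doses nearest to each other were 112.7 pM for HL-60 and 100 pM for Molm-14 cells. There, 9 genes changed more upward in HL-60 and 13 more upward in Molm-14 cells, beside 16.7% and 21% of all genes, and none of these called differences exceeded 2-fold, where 2.66% and 1.18% of all genes did. The median difference was -0.03 on the log2 scale and took the other sign with DESeq2, RLE factors or total counts. TFEB (0.94 ± 0.16, adjusted p = 0.000172), CTSH (0.83 ± 0.21) and CTSZ (0.57 ± 0.09) rose more in HL-60 cells, and LAPTM5 (-0.82 ± 0.04), LIPA (-0.77 ± 0.06) and TPP1 (-0.50 ± 0.04) more in Molm-14 cells. SMPD1 did not pass (0.17 ± 0.20, adjusted p = 0.549). Of the 22 calls, those of 9 genes were lost when single libraries were left out. Without Molm-14 control 2, 8 genes in place of 13 changed more upward in Molm-14 cells.

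**Figure D4:**
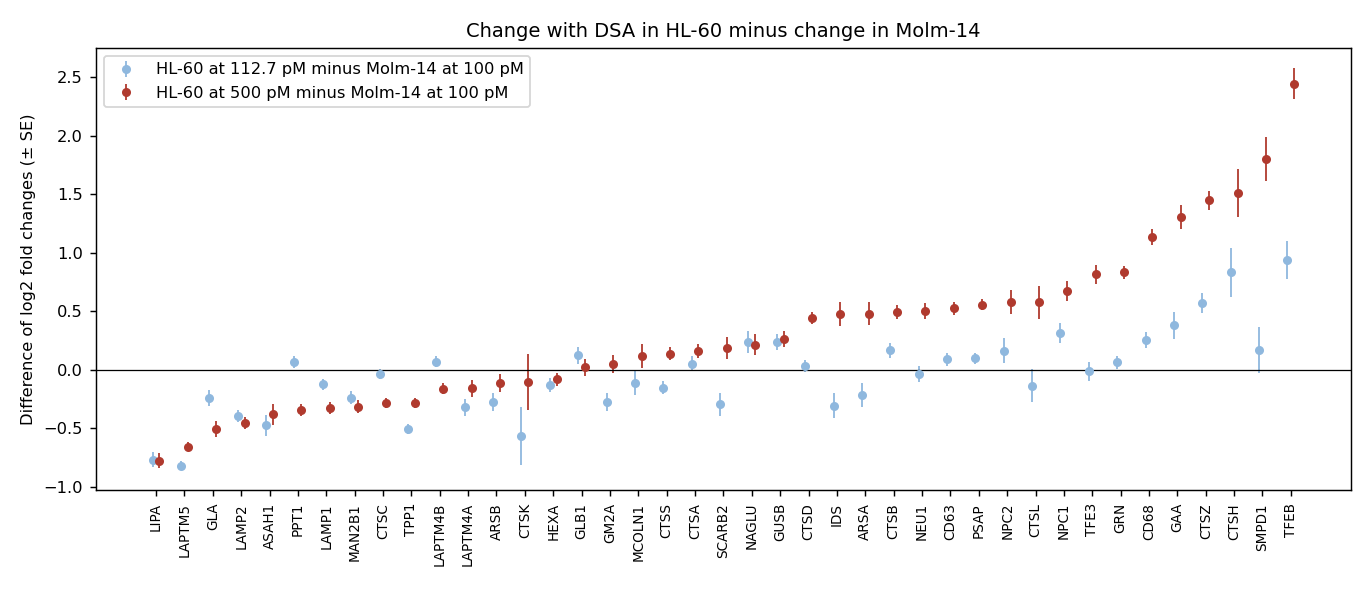
Change with DSA in HL-60 cells minus that in Molm-14 cells (log2, ± SE) for 41 genes, at the high doses and at the doses nearest to each other; CTSF and SGSH are left out for their low counts. TFEB, SMPD1, CTSH, CTSZ, GAA and CD68 lie from 1.14 to 2.45 at the high doses, and at the near-equal doses no gene lies beyond 1 in either direction.

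At the high dose most tested markers of monocytes and macrophages rose with these genes in both lines, and those of promyelocyte granules moved differently in each. The summed level of 16 monocyte and macrophage markers was 574 and 554 CPM in untreated Molm-14 cells, 597 and 609 CPM at the low dose and 1224 and 1231 CPM at the high dose, and in HL-60 cells 219.6 and 225 CPM, then 288 and 296 CPM, then 506 and 503 CPM. At the high dose 7 of the 11 tested markers passed as higher and 1, FCGR1A, as lower for Molm-14, against 10 and 1, MNDA, for HL-60. Of all genes tested, 22.9% were higher and 21.9% lower for Molm-14, and 35.8% and 37.8% for HL-60. ITGAM, an integrin of macrophages and granulocytes, was higher in both (log2 1.59 ± 0.06 and 3.55 ± 0.08). FCGR3A was at 0 in every group, MSR1 in every HL-60 group, and MRC1 in both high-dose groups. The granule genes of promyelocytes fell from 18371 and 18627 CPM to 6594 and 6613 CPM in HL-60 cells at 500 pM, all 5 of them called lower. In Molm-14 cells they went from 3542 and 3651 CPM to 4235 and 4109 CPM at 100 pM, with AZU1 and CTSG higher, MPO lower, and ELANE and PRTN3 not past the test. The summed level of 13 mature granulocyte markers went from 67.4 and 67.7 CPM to 123 and 124 CPM in Molm-14 and from 101.5 and 99.9 CPM to 181 and 178 CPM in HL-60 cells. Of these 13, 6 were tested, and 5 passed as higher in each line at the high dose. ALPL, FCGR3B, LCN2, LTF and MME were at 0 in Molm-14 cells at that dose, and MME and MMP8 in HL-60 cells. The summed level of 8 lymphoid markers went from 174 and 180.04 CPM to 145 and 146 CPM in Molm-14 cells at 100 pM, where NCAM1 was lower and the other 3 tested did not pass. CD3E, CD3G and MS4A1 were at 0 there. NCAM1 alone of the 4 tested was lower in untreated HL-60 than in untreated Molm-14 cells (log2 -7.12), so the larger Molm-14 sum rests mainly on NCAM1. In HL-60 cells at 500 pM the sum went from 5.66 and 5.29 CPM to 13.3 and 11.98 CPM, and 3 of the 4 tested were higher: CD3E (log2 2.97 ± 0.33), CD79B (1.33 ± 0.28) and CD79A (1.12 ± 0.18). The part of these changes in the results for the lysosomal genes was not tested.

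Other genes of the lysosome were read from lists of 160 genes, of which 153 were tested. At the high dose 77 passed as higher and 8 as lower for Molm-14, against 77 and 41 for HL-60. For Molm-14 these were 50.3% and 5.23%, beside 22.9% and 21.9% of all genes tested. For HL-60 they were 50.3% and 26.8%, beside 35.8% and 37.8%. Other lysosomal enzymes were higher in 19 of 30 cases and lower in 3 in Molm-14 cells, and higher in 22 and lower in 4 in HL-60 cells, with medians of 0.32 and 0.61. FUCA1, a fucosidase, rose in both lines (log2 1.47 ± 0.07 and 1.22 ± 0.06), and DNASE2, the acid nuclease of the lysosome, fell by 0.71 in Molm-14 and rose by 2.14 ± 0.08 in HL-60 cells. Other membrane proteins were higher in 15 of 22 cases and lower in none in Molm-14 cells, and higher in 11 and lower in 7 in HL-60 cells. TPCN1, a cation channel, rose by 1.09 ± 0.04 in HL-60 cells and TMEM175, a potassium and proton channel, by 1.16 ± 0.07, while MFSD1 fell by 0.60 there and rose by 0.52 ± 0.04 in Molm-14 cells.

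The V-ATPase is the proton pump that acidifies the lysosome. Of its 17 tested genes, Molm-14 cells had 8 higher and 1 lower and HL-60 cells 8 higher and 4 lower, with medians of 0.09 and 0.04. Genes of lysosomal sorting were higher in 12 of 26 cases and lower in 1 in Molm-14 cells, and higher in 9 and lower in 10 in HL-60 cells, where IGF2R, the large mannose 6-phosphate receptor, rose by 1.07 ± 0.03 and VPS35, a retromer subunit, fell by 0.49. Of 23 genes of mTORC1 and its regulators at the lysosome, Molm-14 cells had 5 higher and 3 lower and HL-60 cells 8 higher and 9 lower, and MLST8, an mTOR subunit, was lower in both (-0.66 ± 0.04 and -0.56 ± 0.04). Of 28 autophagy genes, Molm-14 cells had 14 higher and none lower, whereas HL-60 cells had 12 higher and 7 lower. SQSTM1, the autophagy receptor p62, rose by 0.41 ± 0.04 and 1.98 ± 0.04. All 7 tested inhibitors of cathepsins were higher in HL-60 cells, with a median of 0.95, and 4 of 7 in Molm-14 cells, among them cystatin C, CST3 (1.07 ± 0.05 and 0.78 ± 0.05).

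**Figure D5:**
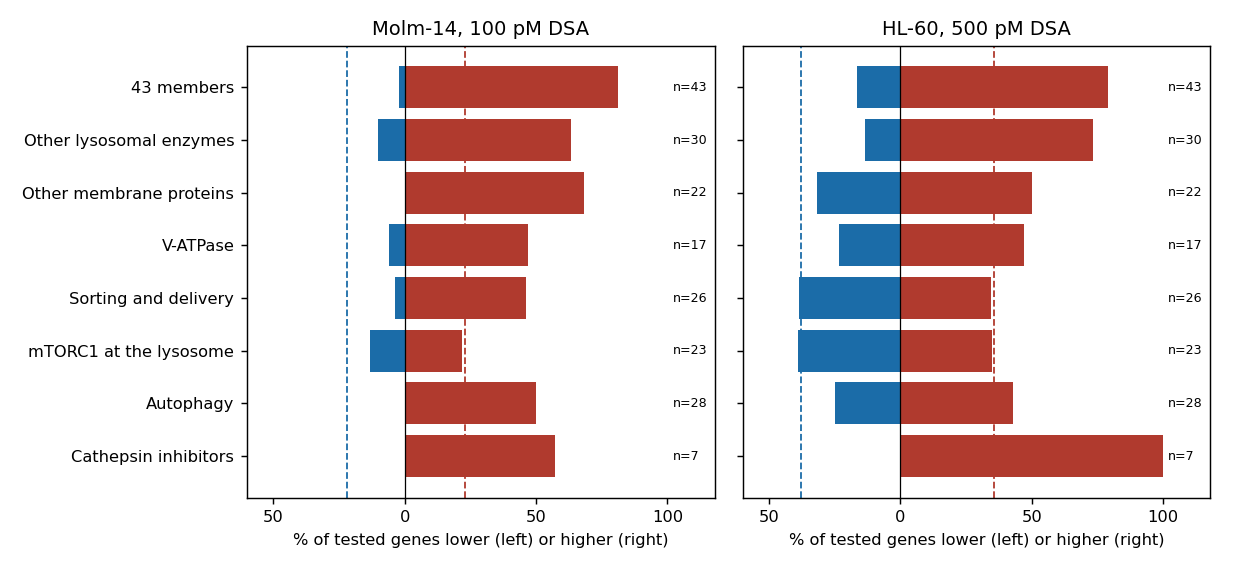
Percent of the tested genes of each list that were higher (red, right) or lower (blue, left) than in untreated cells at the high dose, at an adjusted p under 0.05; dashed lines mark the shares over all 13422 genes tested and n the genes tested per list. The 43 genes stand at 81.4% higher for Molm-14 and 79.1% for HL-60, and the sorting and mTORC1 lists lie close to the dashed lines in HL-60 cells.

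The changes can also be read beside the promoter windows, which 11 of the 43 genes lack. In HL-60 cells at 500 pM the 8 genes with CACGTG in their window, CTSF left out for its counts at 0, had a median log2 fold change of 0.67, from -0.17 (LAMP1) to 1.87 (GAA), and the 23 genes with a window without it a median of 0.67, from -0.42 (PPT1) to 2.61 (TFEB). In Molm-14 cells at 100 pM the medians of the same genes were 0.34 and 0.44. These medians are a description without a test, and nothing is drawn from them about TFEB or TFE3.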

How the data were processed

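The deposited values used are expected counts and TPM per gene and library. The authors trimmed reads with Trim Galore (0.60), mapped them to hg38 with STAR (2.7) and estimated the expected counts and TPM with RSEM (1.31) on GENCODE release 31; the FPKM columns were not used. The sources used here do not give the strand setting of the counting. Files held 60754 genes, of which 60261 matched GENCODE release 44. The 45 second copies of pseudoautosomal genes were dropped, and 19868 protein-coding genes of level 1 or 2 were kept, as the study's methods name.

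Expected counts were rounded. edgeR 4.0.16 in R 4.3.3 kept 13422 genes with filterByExpr, applied TMM scaling to the 12 libraries, and its quasi-likelihood functions (glmQLFit, glmQLFTest) compared the 6 group means. Adjustment was by Benjamini-Hochberg over all genes tested, with calls at an adjusted p under 0.05 and folds over 2 counted beside them. The SE is the size of the log2 fold change divided by the square root of F. The lists of genes were written from general knowledge, and the members and lists were chosen with earlier results of these data known. Any of the 43 genes could be named; values per library went to genes that passed with a fold over 2 in a dose comparison or in the difference between lines, and to TFEB, TFE3 and LAMP1. From each other list up to 4 genes with the smallest p at each high dose could be named. Replicate numbers did not pair the libraries across groups, and no 2 libraries of a group agreed within sampling noise (chi-square per gene of 2.23 or more).

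On simulated counts for 13422 genes with 2 libraries per group, the test recovered 79% and 95% of genes changed by a log2 fold of 1 and 2 in the Molm-14 high-dose comparison, and 81% and 94% in that of HL-60, with 9 false calls of 183 and of 184. Only 100 genes were changed at each size, equally up and down, around gene means taken over all 12 libraries. Far more genes were called in the data, so the simulation does not show how the test behaves there or for smaller changes. Promoter windows are those of RefSeq (GRCh38.p14), matched by symbol. Alternatives were DESeq2 1.42.0, limma-voom (3.58.1) with TMM, RLE factors, total counts alone, no filter, genes averaging 50 or more counts, every gene type and level, the compared groups alone, the replicate number as a block and leaving out each library. Thinning to the smallest total (random seed 7) and summing counts with overlapping same-strand genes that averaged 20 or more counts (7 members had one) were chosen after seeing the data. Leaving CTSF and SGSH out of medians was also chosen after seeing the data.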

Additional observations from a re-analysis of the deposited data

Results flagged for a closer look

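The change with DSA at the high doses differed between the lines for 6 genes by more than 2-fold, each by the edgeR test of the difference itself, where 10.1% of all genes tested had such a difference in favour of HL-60 cells. It was larger in HL-60 than in Molm-14 cells by a log2 value of 2.45 for TFEB, 1.80 for SMPD1, 1.51 for CTSH, 1.45 for CTSZ, 1.31 for GAA and 1.14 for CD68. The doses, media and serum of the lines differed as well and cannot be told apart from the line. Of these 6, TFEB, GAA, CTSZ and CD68 started lower in HL-60 cells, CTSH started higher, and SMPD1 did not differ beyond the spread between libraries. At the near-equal doses the differences were 0.94, 0.17, 0.83, 0.57, 0.38 and 0.26 in the same order. With its overlapping same-strand gene summed, the difference of CD68 was 0.44 at the high doses and -0.21 at the near-equal doses.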

How the results depend on the processing

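With 2 libraries per group, calls of small changes rest on single libraries, and genes with few counts (CTSF, SGSH in Molm-14 cells) allow no fold change. Leaving out a library leaves a group with 1, whose spread is then taken from the other groups.

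For the low dose in Molm-14 cells 1 gene in place of 0 was called higher with DESeq2, limma-voom, total counts and thinned libraries, and the median log2 fold change of all 43 genes, 0.015, took the other sign without CTSF and SGSH (-0.0065) and without control 2 (-0.0209) or low-dose library 1 (-0.0232), in a range up to 0.0298 over the left-out libraries. At the high dose in Molm-14 cells 2 genes in place of 1 were called lower without the filter, with all gene types and with only the groups compared. Against the low dose, 0 in place of 1 was called lower with total counts and thinned libraries, and 0 to 1 when a library was left out. In HL-60 cells at the high dose 4 genes in place of 7 were called lower with total counts, which moved the median of all genes to 0.18, and LAMP1 took the other sign (0.0089). At near-equal doses 7 genes in place of 13 had the more upward change in Molm-14 cells with DESeq2, and 8 to 12 when a library was left out. The median difference there took the other sign with DESeq2 (0.0212), RLE factors (0.0211), total counts (0.0054), only the groups compared (0.0068) and without Molm-14 control 2 (0.0179, in a range from -0.0575), and that of CD68 with summed counts (-0.21). The cause of these shifts was not tested. All other counts of genes called stayed within 1.5 times. The number of genes called higher ran from 31 to 32 for Molm-14 at the high dose and stayed at 33 for HL-60 when a library was left out.

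Replicate numbers did not pair the libraries: the correlations of their deviations ran from -0.0687 to 0.0665. With the replicate number as a block the calls at the high doses stayed at 35 higher and 1 lower in Molm-14 and 34 higher and 7 lower in HL-60 cells, CTSK at the low dose in HL-60 cells went to an adjusted p of 0.0515 and MCOLN1 between the untreated lines to 0.217.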
